A study of Mus musculus with 28 samples.

Results

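The genes described here carry peptides from the proteasome to the cell surface on MHC class I molecules: the heavy chains H2-K1 and H2-D1, the light chain B2m, the peptide transporter subunits Tap1 and Tap2, the loading factor Tapbp, the immunoproteasome subunits Psmb8, Psmb9 and Psmb10, and Nlrc5, a transactivator of class I genes. They were chosen by name, and each of the 10 had 1 row among the 55450 genes of the RNA-seq table and passed the filter on low values (a mean of at least 0.1 TPM), as did 16415 genes in all. The libraries come from C10, a mouse Pre-B cell line derived from HAFTL cells that carries the CEBPalpha-ER transgene, a fusion of C/EBPα with the hormone-binding part of the estrogen receptor that enters the nucleus when β-estradiol is added. RNA was sequenced from 3 biological replicates before induction (0h) and 3 each at 1h, 12h and 48h after 100 nM β-estradiol, 10 nM IL-3 and CSF-1 were added, and promoter contacts were mapped by Promoter Capture Hi-C (PCHi-C) at the same times, with 2 replicates merged per time. The 0h cells carry the transgene too but received no β-estradiol or cytokine, and no time-matched culture without β-estradiol and no line without the transgene was analysed here, so the effect of the transgene cannot be told apart from that of the cytokines or of time in culture. All libraries come from a single cell line, and the values do not show whether the changes are shared by other Pre-B cells.

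MHC class I molecules display fragments of proteins made inside the cell to cytotoxic T cells. The proteasome cuts these proteins, the TAP transporter carries the fragments into the endoplasmic reticulum, tapasin (Tapbp) holds an empty class I molecule next to TAP until a peptide fits, and β2-microglobulin (B2m) is the small chain without which the heavy chain does not reach the surface. In cells of the immune system and in cells exposed to interferon, the immunosubunits Psmb8, Psmb9 and Psmb10 take the places of the constitutive catalytic subunits Psmb5, Psmb6 and Psmb7, which changes the peptides that are cut. Nlrc5 acts on the promoters of the class I genes together with RFX factors. Macrophages, the cells toward which the C10 line was driven, are known for high class I expression that interferon raises further.

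Most markers of the labelled cell types were present. Summed over 12 Pre-B markers such as Vpreb1 and Pax5, TPM fell from 306 to 346 at 0h to 30.0 to 41.9 at 48h, while the sum over 9 macrophage markers such as Itgam, Csf1r and Lyz2 went from 3.36 to 4.61 at 0h to 678 to 795 at 48h. Mmp12 made the largest part of the 48h sum (490, 575 and 409 TPM), while Itgam had 6.47, 8.37 and 9.38. Adgre1, also on the macrophage list, had 0, 0 and 0.29 TPM at 48h. Lyz2 was lower at 48h (94.7 to 122 TPM) than at 12h (171 to 253 TPM). The 7 T and NK cell markers summed to at most 0.2 TPM, the 5 stromal markers to at most 0.34 TPM and the 5 erythroid markers to 0 in every library. TPM, a level per unit of transcript length, is relative to all other RNA in the library, and an overlapping pair of genes at a ribosomal RNA locus took 70.3% to 82.9% of it. The median of all genes tested therefore moved with the scaling: relative to 0h after 1h, 12h and 48h it lay at 0.59, 0.34 and -0.18 on the log2 scale in the TPM as deposited, and at 0.02, 0.07 and 0.07 after median-of-ratios scaling, which puts the typical gene at the same level in every library. Each change below is given on both scales, as a log2 fold change of TPM + 0.1 fitted with limma over all 12 libraries, with p-values adjusted by the Benjamini-Hochberg method over the 16415 genes. A member is said to have risen or fallen where this adjusted p was under 0.05. The comparisons with 0h share the same 3 control libraries. In bulk RNA, fewer cells that express a gene and less RNA per cell cannot be told apart. The ribosomal pair took its lowest share in replicate 3 at every time (76.9% at 0h, then 70.3%, 72.8% and 75.7%). At 48h the gap was widest, with 82.9% and 82.7% in the others, and that library is named below where it decides a value.

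The promoters of H2-K1, H2-D1 and B2m are printed because these genes had the most abundant RNA and were among the 4 members with the largest changes at 48h. The sequences are those of RefSeq on GRCm38.p6, 250 bases upstream of the start site, 5′ to 3′ on the strand of the gene, with matches to any of 5 motifs in capitals: the core of an interferon-stimulated response element (GAAA, any 2 bases, GAAA), a κB site, bound by NF-κB (GGG, any 2 bases, TT, any base, CC), the X2 box core (TGACGC), the Y box core (CCAAT) and a C/EBP site (TTNNGCAA), each searched on both strands. They lie at chr17:34000348-34000597 (minus strand) for H2-K1, at chr17:35262844-35263093 (plus strand) for H2-D1 and at chr2:122147437-122147686 (plus strand) for B2m.
H2-K1: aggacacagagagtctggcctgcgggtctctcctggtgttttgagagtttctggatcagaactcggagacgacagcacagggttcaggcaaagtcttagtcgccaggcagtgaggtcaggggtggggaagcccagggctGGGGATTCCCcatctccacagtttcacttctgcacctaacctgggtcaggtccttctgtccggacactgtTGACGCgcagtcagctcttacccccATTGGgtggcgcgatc
H2-D1: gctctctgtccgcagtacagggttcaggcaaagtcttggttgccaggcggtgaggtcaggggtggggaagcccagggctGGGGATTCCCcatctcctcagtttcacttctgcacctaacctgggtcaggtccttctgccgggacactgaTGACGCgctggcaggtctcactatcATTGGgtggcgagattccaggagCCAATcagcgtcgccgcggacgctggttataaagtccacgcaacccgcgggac
B2m: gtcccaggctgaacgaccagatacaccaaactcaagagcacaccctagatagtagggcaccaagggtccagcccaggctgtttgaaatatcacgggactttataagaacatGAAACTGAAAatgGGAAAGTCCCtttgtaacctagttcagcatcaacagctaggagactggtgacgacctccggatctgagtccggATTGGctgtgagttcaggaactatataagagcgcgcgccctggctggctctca
In both heavy-chain promoters the capitals mark the same series in the same order, a κB site (GGGGATTCCC), TGACGC and ATTGG, the CCAAT box read on the other strand. A further CCAAT follows in both genes, printed for H2-D1 and for H2-K1 just past the end of the sequence shown. In B2m they mark an interferon-stimulated response element (GAAACTGAAA, at -139 to -130 from the start), a κB site on the other strand (GGAAAGTCCC, at -126 to -117) and ATTGG. Windows of 250 bases before to 50 after the start were given for 8 of the 10 members, with 2 windows for H2-K1 and none for Tap2 and Nlrc5. Within a single window, no matches overlapped. The 2 windows of H2-K1 overlap and hold the same matches. The κB motif was found in 3 of the 8 members, H2-K1, H2-D1 and B2m, and in 4.79% of the 32851 windows of all genes. The interferon-stimulated element was found in B2m among the 8 members and in 3.44% of all windows, and TGACGC in H2-K1 and H2-D1 and in 7.40% of all windows. CCAAT was found in 6 of the 8 members (H2-K1, H2-D1, B2m, Tap1, Tapbp and Psmb9) and in 37.4% of all windows. The windows of Tap1 and Psmb9 overlap on opposite strands, and their CCAAT match is the same stretch of DNA, counted for each gene. None of the 5 motifs was found in the windows of Psmb8 and Psmb10, and TTNNGCAA was in none of the 8, against 10.8% of all windows. A match is a run of letters and not a measured site. Only exact matches to these patterns were counted, so a promoter without a match may still hold a variant form of the element.

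At 48h, 6 of the 10 members had risen relative to 0h and none had fallen: H2-K1, H2-D1, B2m, Tap1, Tapbp and Nlrc5. Of all genes tested, 15.9% rose and 27.2% fell in this comparison. After median-of-ratios scaling the same 6 members rose and none fell, against 24.5% and 22% of all genes. The median of the 10 members was 1.60 on the log2 scale (2.01 after scaling), against -0.18 (0.07) over all genes tested. The members that rose make the class I complex, load it or act on its promoters. The 4 that passed no test in this comparison on either scale were Tap2 and the 3 immunoproteasome subunits.

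**Figure D1:**
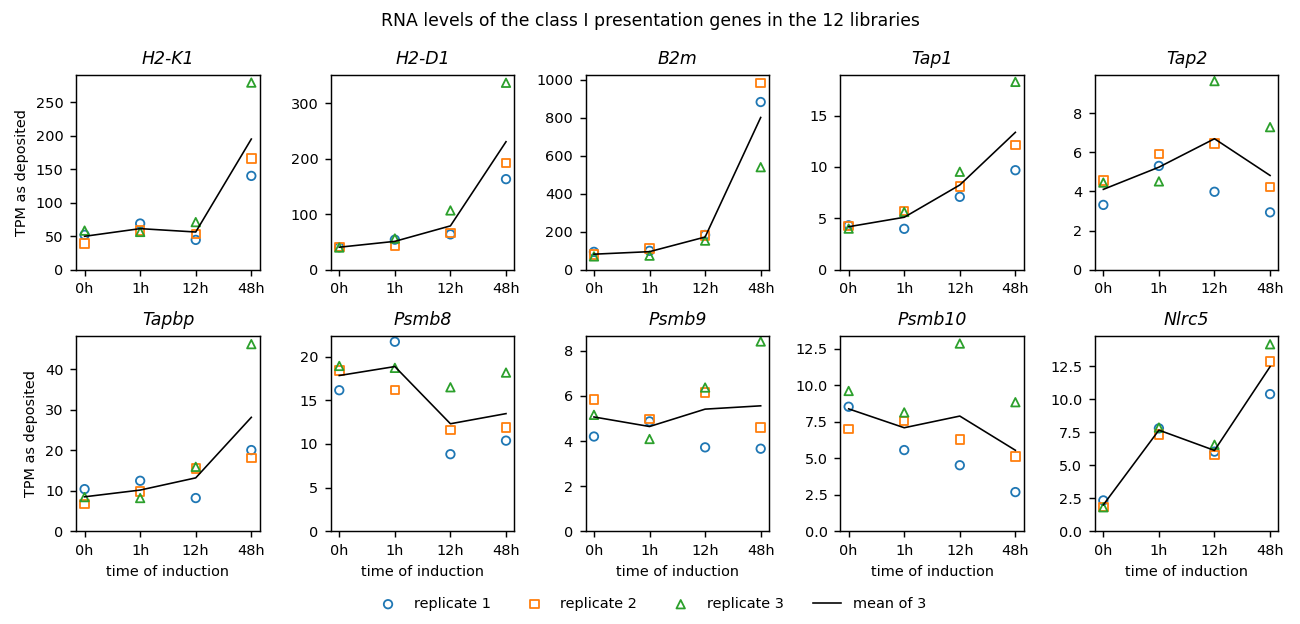
TPM as deposited of each class I gene in the 12 libraries, by time of induction on the x axis and from 0 on each y axis, with a symbol per replicate and a line through the means of 3. H2-K1, H2-D1, B2m, Tap1, Tapbp and Nlrc5 lie above all 0h values at 48h, and among the 48h libraries replicate 3 is the highest for every gene but B2m.

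Before induction, B2m was the most abundant member at 81.9 ± 11.9 TPM (SD, n = 3), followed by H2-K1 at 49.9 ± 9.79 and H2-D1 at 40.6 ± 0.595. Psmb8 followed at 17.8 ± 1.48 TPM, and Tapbp (8.52 ± 1.86) and Psmb10 (8.39 ± 1.31) were next. Psmb9 stood at 5.07 ± 0.824, Tap1 at 4.18 ± 0.165, Tap2 at 4.10 ± 0.689 and Nlrc5 at 2.00 ± 0.292. The 0h libraries of B2m did not overlap those of H2-K1, those of Psmb8 did not overlap those of any other member, those of Psmb10 lay above those of Psmb9, and those of Nlrc5 lay below all others. The other neighbours in this order had overlapping libraries. At 48h the order of the first members had changed to B2m (801 ± 232), H2-D1 (230.8 ± 93.1) and H2-K1 (195 ± 74.1), the heavy chains with overlapping libraries, and Tapbp, with 28.1 ± 15.7, stood before Psmb8 with 13.5 ± 4.14.

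B2m encodes the chain shared by all class I molecules. Its TPM were 94.1, 81.3 and 70.2 at 0h, 99.5, 112 and 74.2 at 1h, 183, 180.0 and 153 at 12h and 882, 981 and 539.5 at 48h. Here all 12h libraries were above all 0h libraries and all 48h libraries above all 12h libraries, whereas 0h and 1h overlapped. It had changed by 3.25 ± 0.24 on the log2 scale after 48h (SE, adjusted p = 7.9e-07, limma), or 3.67 after scaling, and without replicate 3 at 48h it was 3.52. It was the largest change among the members.

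H2-K1 encodes a classical heavy chain, the part of the complex that binds the peptide. Its TPM were 52.1, 39.2 and 58.4 at 0h, 69.0, 58.7 and 56.5 at 1h, 44.6, 53.3 and 71.1 at 12h and 140.1, 166 and 279 at 48h. The first 3 times overlapped, and only the 48h libraries were above all others. Its change after 48h was 1.92 ± 0.27 on the log2 scale (adjusted p = 0.000115, limma), or 2.33 after scaling.

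H2-D1, the other classical heavy chain, gave 40.6, 41.2 and 40.0 TPM at 0h, 54.2, 43.0 and 56.3 at 1h, 63.8, 66.6 and 107 at 12h and 163, 192 and 337 at 48h. At 12h its libraries were above all 0h libraries on both scales. At 1h they were so as deposited (log2 0.32), as were those of 40.8% of all genes, and overlapped after scaling (-0.34). After 48h the log2 value stood 2.43 ± 0.27 higher (adjusted p = 2.11e-05, limma), or 2.84 after scaling. The ratio of H2-D1 to H2-K1 TPM in the same library was 0.685 to 1.05 at 0h, between 1.25 and 1.5 by 12h, and between 1.16 and 1.21 by 48h. The heavy-chain genes are near-identical over long stretches, the haplotype of the line at these polymorphic genes is not given in the sources used here, and the authors' estimate divides shared reads between copies, so levels of single heavy chains are uncertain.

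The light chain and the heavy chains did not rise in a fixed proportion in every library. B2m TPM divided by the sum of H2-K1 and H2-D1 were 1.01, 1.01 and 0.713 at 0h and 2.91, 2.74 and 0.875 at 48h. The first 2 libraries at 48h lay above all 0h libraries, and the third, in which B2m was lowest and both heavy chains highest, lay within their range.

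Tap1 and Tap2 form the transporter together, but their RNA levels moved apart. Tap1 gave 4.32, 4.23 and 4.0 TPM at 0h, 3.98, 5.71 and 5.62 at 1h, 7.09, 8.11 and 9.53 at 12h and 9.68, 12.1 and 18.3 at 48h, so 0h, 12h and 48h did not overlap. Relative to 0h the 48h value was 1.60 ± 0.24 higher on the log2 scale (adjusted p = 0.000185, limma), or 2.01 after scaling. Tap2 gave 3.31, 4.55 and 4.45 TPM at 0h, 5.30, 5.90 and 4.51 at 1h, 3.98, 6.45 and 9.63 at 12h and 2.93, 4.23 and 7.28 at 48h, with every time overlapping 0h. On the log2 scale the 48h value differed by 0.14 ± 0.35 (adjusted p = 0.79, limma), or 0.54 after scaling (adjusted p = 0.168). The ratio of Tap1 to Tap2 was 1.31, 0.930 and 0.899 in the 0h libraries and 3.30, 2.87 and 2.51 in the 48h libraries, which lay above every 0h value. Tapbp, which bridges the transporter and the class I molecule, gave 10.4, 6.70 and 8.44 TPM at 0h, 12.5, 9.85 and 8.21 at 1h, 8.21, 15.4 and 15.9 at 12h and 20.04, 18.1 and 46.2 at 48h. Only the 48h libraries were above all 0h libraries, replicate 3 by far the highest. The difference on the log2 scale after 48h was 1.60 ± 0.37 (adjusted p = 0.00386, limma), 2.01 after scaling and 1.18 without that library (adjusted p = 0.011).

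Nlrc5 was the only member that rose at 1h. Its TPM were 2.34, 1.85 and 1.82 at 0h, 7.79, 7.33 and 7.85 at 1h, 6.03, 5.78 and 6.55 at 12h and 10.4, 12.8 and 14.2 at 48h. Every induced library was above every 0h library, the 12h values lay just below those of 1h, and the 48h values were the highest. Its log2 fold changes stood at 1.89 ± 0.17 at 1h (adjusted p = 3.54e-05, limma), 1.57 ± 0.17 at 12h (adjusted p = 4.12e-05) and 2.57 ± 0.17 at 48h (adjusted p = 3.01e-07). After scaling they were 1.24, 1.24 and 2.99, so the step from 1h to 12h, -0.32 as deposited (adjusted p = 0.205), was 0.00 after scaling.

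At 1h, 1 of the 10 members had risen and none had fallen on either scale, against 24.1% of all genes that rose and 1.41% that fell as deposited, and 5.42% and 4.92% after scaling. The other 9 members had log2 fold changes between -0.25 and 0.35 as deposited, 7 of them above 0, and between -0.90 and -0.30 after scaling, with none above 0. The lowest adjusted p among these 9 was 0.402 as deposited and 0.0985 after scaling (limma), so neither sign can be read for them. At 12h, 4 members had risen (H2-D1, B2m, Tap1 and Nlrc5) and none had fallen, against 22.3% and 7.82% of all genes. The values at 12h were 0.92 for H2-D1 (adjusted p = 0.0249, limma), 1.08 for B2m (adjusted p = 0.00588) and 0.95 for Tap1 (adjusted p = 0.0108). After scaling, B2m (0.74), Tap1 (0.62) and Nlrc5 rose, H2-D1 had 0.58 (adjusted p = 0.0749), and Psmb8 fell by 0.91 (adjusted p = 0.0076), against 16% of all genes that rose and 14.5% that fell. As deposited, H2-D1 missed the threshold at 12h without any single 0h replicate or without replicate 3 at 12h (adjusted p = 0.0588 to 0.0949, limma), and without that last library Psmb8 fell by 0.81 (adjusted p = 0.0383). After scaling, 1 or 2 members rose at 12h with any single library of the comparison left out. H2-K1 passed on neither scale at 12h, with 0.17 as deposited and -0.17 after scaling.

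**Figure D2:**
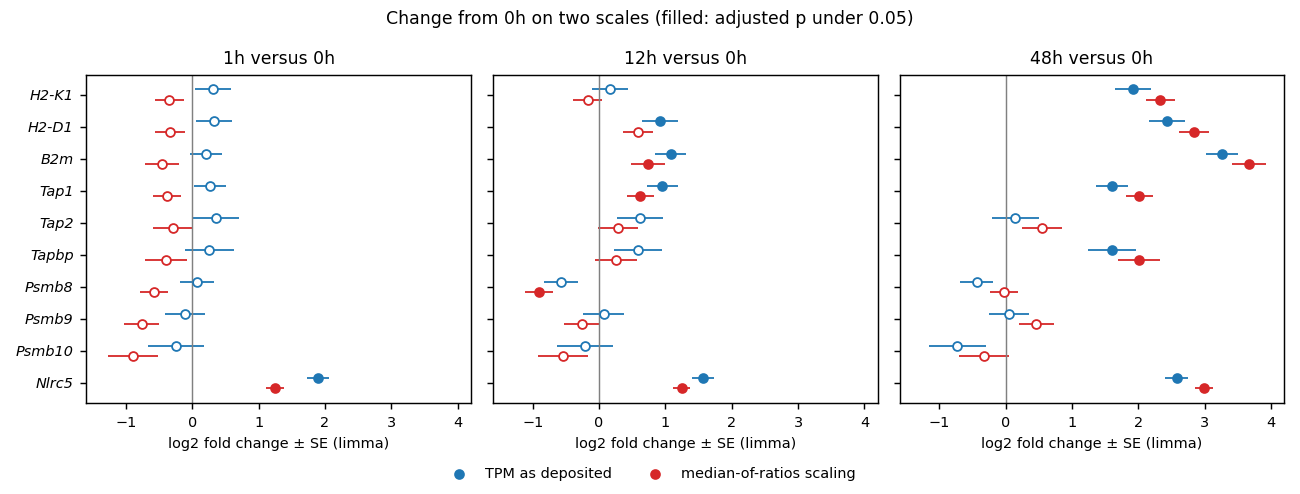
Log2 fold change of each member against 0h at 1h, 12h and 48h, with bars of 1 SE from limma, for TPM as deposited (blue) and after median-of-ratios scaling (red). Filled points have an adjusted p under 0.05. Nlrc5 is the only filled gene at 1h, and at 48h the same 6 genes are filled on both scales.

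The steps between neighbouring times were compared as well. From 12h to 48h, 5 members rose and none fell, against 4.1% of all genes that rose and 31.7% that fell: H2-K1 by 1.75, H2-D1 by 1.51, B2m by 2.18, Tapbp by 1.01 (adjusted p = 0.0495, limma) and Nlrc5 by 1.00. After scaling, Tap1 (1.39) and Psmb8 (0.88) joined them, with 10.5% of all genes that rose and 11.9% that fell. Tapbp was the least firm of these calls: its value was 0.59 without replicate 3 at 48h (adjusted p = 0.168, limma) and 0.70 without replicate 1 at 12h (adjusted p = 0.179), and it also missed the threshold without replicate 2 or 3 at 12h or replicate 1 at 48h (adjusted p = 0.0648, 0.0647 and 0.0547). From 1h to 12h, B2m alone rose (0.87, adjusted p = 0.0237, limma), against 6.98% of all genes, and no member fell, against 15% of all genes. After scaling H2-D1 (0.92) and Tap1 (1.00) rose as well and none fell, against 11.3% and 8.77% of all genes. Leaving out replicate 1 or 3 at 1h, or replicate 1 or 2 at 12h, took the call of B2m between these times away (adjusted p = 0.0585, 0.0864, 0.0764 and 0.0776, limma), and no member then rose on the deposited scale.

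A stricter rule and a rule without a test gave the same picture at 48h. With a log2 fold change beyond 1 also required, 6 members rose at 48h, against 13.5% of all genes, 1 at 1h (16.7%), 2 at 12h (17.7%), none between 1h and 12h (5.49%) and 5 between 12h and 48h (3.55%). With a change beyond 2 required, 3 members rose at 48h (6.43% of all genes), none at 1h (3.59%), 12h (5.9%) or between these (2.07%), and 1 between 12h and 48h (1.91%). Counted without a test, all libraries of 2 members (H2-D1 and Nlrc5) were above all 0h libraries at 1h, against 40.8% of all genes, and no member's were below (3.28%). By 12h this held for 4 members above (30.6%) and none below (12.4%), and by 48h for 6 above (19.2%) and none below (30.8%). Between 1h and 12h, 3 members lay wholly above (12.1%) and Nlrc5 wholly below (27.2%), and between 12h and 48h 6 lay above (5.81%) and none below (39.2%).

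The immunoproteasome subunits did not follow the class I complex. Psmb8, which replaces Psmb5 and carries the chymotrypsin-like activity, gave 16.2, 18.4 and 18.9 TPM at 0h, 21.7, 16.2 and 18.7 at 1h, 8.83, 11.6 and 16.5 at 12h and 10.4, 11.9 and 18.2 at 48h. Its 48h value differed from 0h by -0.44 ± 0.25 on the log2 scale (adjusted p = 0.193, limma), or -0.03 after scaling. Psmb9, which replaces Psmb6, gave 4.2, 5.84 and 5.16 TPM at 0h, 4.87, 4.97 and 4.09 at 1h, 3.72, 6.15 and 6.37 at 12h and 3.66, 4.61 and 8.41 at 48h. In both genes all 48h libraries but the third lay at or below most 0h libraries, and the third lay within or above them. The value of Psmb9 at 48h was 0.06 ± 0.30 (adjusted p = 0.919, limma), or 0.46 after scaling (adjusted p = 0.184). Psmb10, which replaces Psmb7, gave 8.54, 7.02 and 9.62 TPM at 0h, 5.57, 7.58 and 8.15 at 1h, 4.53, 6.30 and 12.9 at 12h and 2.69, 5.13 and 8.85 at 48h, and its value at 48h was -0.73 ± 0.43 (adjusted p = 0.198, limma), or -0.33 after scaling. Without replicate 3 at 48h, Psmb8 (-0.68, adjusted p = 0.0452) and Psmb10 (-1.14, adjusted p = 0.0482) fell on the deposited scale, and neither fell after scaling.

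All 3 constitutive catalytic subunits fell over the same time. Psmb5 went from 9.54, 7.38 and 9.55 TPM at 0h to 0.94, 0.79 and 4.38 at 48h (-2.46 ± 0.49 on the log2 scale, adjusted p = 0.00145, limma). Psmb6 went from 16.8, 17.8 and 15.8 TPM to 3.92, 4.74 and 7.97 (-1.65 ± 0.26, adjusted p = 0.000345), and Psmb7 from 9.92, 9.82 and 8.70 to 3.02, 4.78 and 4.28 (-1.24 ± 0.20, adjusted p = 0.00038). No library at 48h reached the lowest at 0h in any of the 3. After scaling the values were -2.09, -1.24 and -0.84, all with an adjusted p under 0.05.

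The ratio of an immunosubunit to its constitutive counterpart in the same library does not depend on the scaling. Psmb8 divided by Psmb5 was 1.69, 2.50 and 1.98 at 0h and 11.04, 15.0 and 4.15 at 48h, a log2 difference of 2.02 (two-sided exact permutation test, p = 0.1). Psmb9 divided by Psmb6 was 0.250, 0.328 and 0.326 at 0h and 0.934, 0.973 and 1.06 at 48h, a log2 difference of 1.70 (exact p = 0.1). For both pairs every 48h library lay above every 0h library, and the exact test of 3 against 3 can give no p below 0.1. Psmb10 divided by Psmb7 was 0.861, 0.715 and 1.11 at 0h and 0.891, 1.07 and 2.07 at 48h, a log2 difference of 0.51 with overlapping libraries (exact p = 0.3). At 1h the log2 differences from 0h were -0.47 (exact p = 0.2), -0.37 (p = 0.2) and -0.78 (p = 0.1) for the 3 pairs in this order, and at 12h they were -0.59 (p = 0.1), 0.25 (p = 0.6) and -0.35 (p = 0.4). The Psmb8 to Psmb5 ratio lay below all 0h values at 12h, as did the Psmb10 to Psmb7 ratio at 1h. Of these 9 comparisons, none could pass 0.05 in this design, with or without adjustment. At 48h, Psmb8 and Psmb9 passed no test on either scale, and Psmb5 and Psmb6 fell on both.

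**Figure D3:**
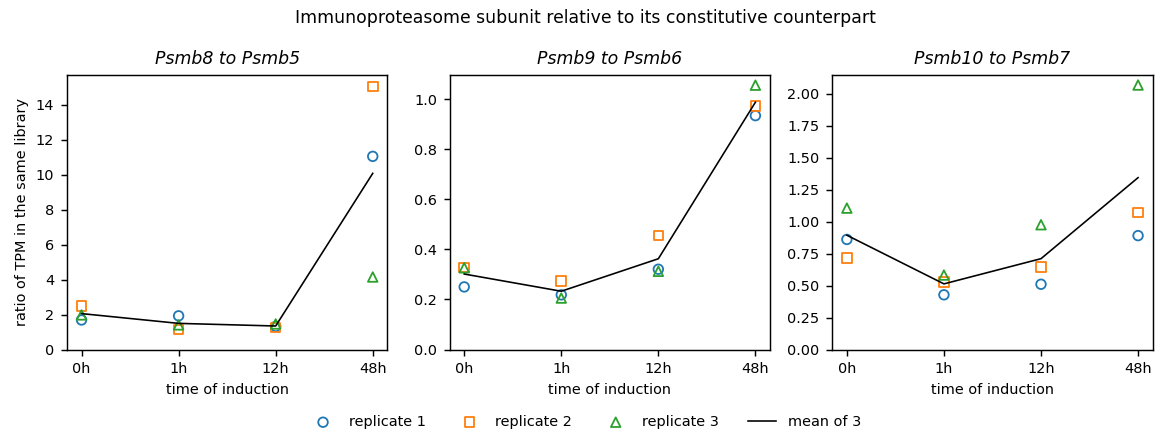
Ratio of the TPM of each immunosubunit to that of its constitutive counterpart in the same library (y axis, from 0) by time of induction, with a symbol per replicate and a line through the means of 3. The 48h libraries lie above all 0h libraries for Psmb8 to Psmb5 and Psmb9 to Psmb6, and overlap them for Psmb10 to Psmb7.

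Other core subunits of the proteasome fell as well, and so did part of its activators and assembly factors. Of the 11 other 20S core subunits, which form the structural rings, 11 fell at 48h as deposited, against 27.2% of all genes, and 9 after scaling, against 22%, with a median of -1.31 (-0.91 after scaling). The largest were Psma6 (-1.80), Psmb4 (-1.69) and Psma1 (-1.48). Of 9 activators and assembly factors, 6 fell on both scales and none rose as deposited, against the same shares of all genes, led by the assembly chaperones Psmg1 (-2.49), Psmg2 (-2.42) and Psmg3 (-2.39). Psme1 and Psme4, both proteasome activator genes, rose after scaling (0.88 and 1.20) but not as deposited (0.47 and 0.80).

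Heavy chains outside the member list rose as well. Of 23 such genes, 19 had a row in the table and 13 passed the filter on low values. Among those that passed, H2-K2 is annotated as a pseudogene and H2-T10 as a polymorphic pseudogene. Of these 13, 12 rose at 48h on both scales (15.9% of all genes as deposited, 24.5% after scaling), none fell, and the other, H2-M3, had 0.63 as deposited (adjusted p = 0.129, limma) and 1.03 after scaling (adjusted p = 0.00589). Each of the 13 already had a 0h mean above the cut of the filter, the lowest being H2-Q6 at 0.173 TPM. The median of 2.19 is a description of those that passed. H2-T24, a nonclassical class I gene, went from 0.15, 0.41 and 0.09 TPM at 0h to 30.7, 37.5 and 34.0 at 48h. This rise of 6.88 ± 0.54 on the log2 scale (adjusted p = 1.18e-06, limma) ranged from 4.85 to 7.49 over the alternatives, lowest with a pseudocount of 1. H2-Q6 (3.44) and H2-T10 (2.58) followed, from levels of at most 0.41 and 1.18 TPM at 0h, and H2-Q6 ranged from 1.51 to 4.86 over the alternatives. Reads shared with the far more abundant H2-K1 and H2-D1 may be counted toward similar genes of low TPM. The part of this in the rises was not tested.

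Of 8 genes that help fold and load class I molecules or trim and move peptides, none rose and 4 fell at 48h as deposited (15.9% and 27.2% of all genes), and 1 rose (Tapbpl, 1.04) and 2 fell after scaling (24.5% and 22%). Sec61b, a subunit of the channel into the endoplasmic reticulum, fell by 1.86 and the chaperone Canx by 0.89, on both scales past the threshold. Erap1, the aminopeptidase that trims peptides to class I length, had -1.18 as deposited (adjusted p = 0.0119, limma) and -0.78 after scaling (adjusted p = 0.0812).

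Genes that are known to act on class I promoters, or that bring the interferon signal to them, moved in part. Of 26 on the list, 25 were tested, and Ciita, the class II counterpart of Nlrc5, was below the filter. At 1h, 8 rose and 1 fell as deposited (24.1% and 1.41% of all genes), and 2 (Stat3 and Socs3) rose and 1 (Irf8) fell after scaling (5.42% and 4.92% of all genes). At 12h, 16 rose and none fell as deposited (22.3% and 7.82% of all genes), and 14 rose and 2 fell after scaling (16% and 14.5%). At 48h, 14 rose and 2 (Irf3 and Nfkb1) fell as deposited (15.9% and 27.2% of all genes), and 17 rose and 2 fell after scaling (24.5% and 22%), with a median of 1.13 (1.54). Irf7, an interferon-induced transcription factor, went from 0, 0.21 and 0.31 TPM at 0h to 3.43, 3.74 and 4.48 at 12h and 105, 108 and 165.5 at 48h, a rise of 9.05 ± 0.60 on the log2 scale (adjusted p = 3.31e-07, limma) that ranged from 6.74 to 10.4 over the alternatives. Socs3, a feedback inhibitor of cytokine signals, rose by 3.99, 5.17 and 4.54 after 1h, 12h and 48h, from 0.04 to 0.12 TPM at 0h, near the pseudocount, and its 48h value ranged from 2.17 to 5.70 over the alternatives. The κB factor Nfkb1 fell by 0.85 at 48h (adjusted p = 0.00663) and Rela had 0.34 (adjusted p = 0.0637), or 0.74 after scaling (adjusted p = 0.00354).

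Most tested genes of MHC class II, which presents peptides from outside the cell, rose as well, some from and to low levels. Of 10, 8 were tested and 7 rose at 48h on both scales (15.9% and 24.5% of all genes), with a median of 1.43 (1.83 after scaling). The chains H2-Aa and H2-Eb2 were below the filter, with at most 0.09 and 0.27 TPM at 48h. The chains H2-Eb1 and H2-Ab1 rose but reached at most 0.4 and 1.75 TPM. A rise of the complete class II molecule can therefore not be read from this count. Cd74, the invariant chain, had 0, 0.52 and 0.38 TPM at 0h and 131, 159 and 168 at 48h, a rise of 8.94 ± 0.52 on the log2 scale (adjusted p = 1.21e-07, limma) that ranged from 6.90 to 10.2 over the alternatives. H2-DMa (2.57) and H2-DMb2 (1.97), which load class II, were next.

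**Figure D4:**
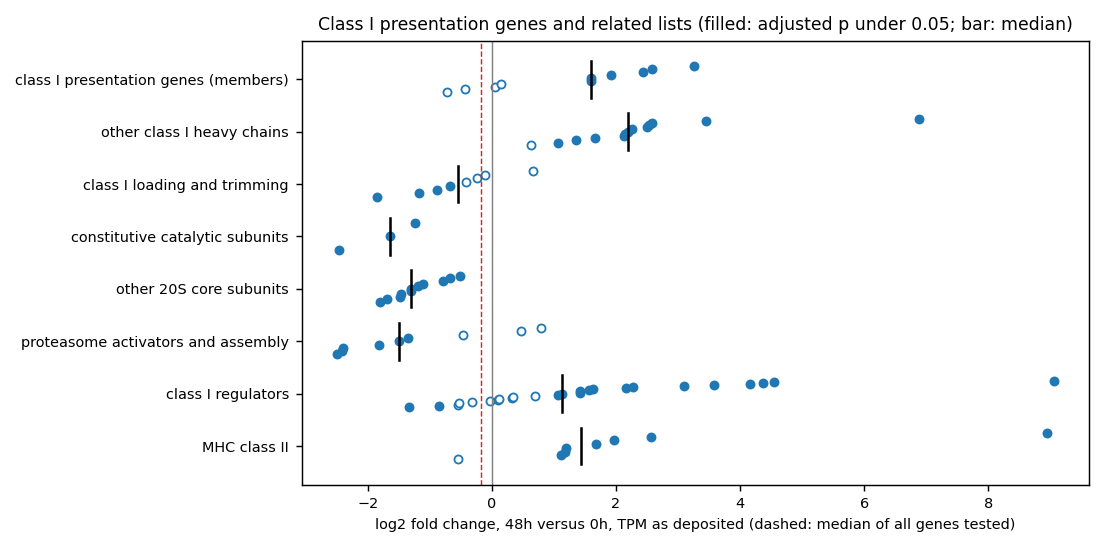
Log2 fold change at 48h versus 0h (x axis, TPM as deposited) of each tested gene of the members and 7 related lists (rows), with filled points at an adjusted p under 0.05, a bar at each list's median and a dashed line at the median of all genes tested. The 10 members split into 6 filled points above 1 and 4 open points around 0, and the points of the proteasome core lists lie below 0.

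Over the time course, some members had close neighbours in shape. Likeness was measured as the root mean square difference of the 3 scaled log2 fold changes against 0h. It was ranked among 9281 genes with a mean of at least 1 TPM, members included, and each member was left out of its own ranking. The nearest to H2-D1 was Fth1, a ferritin chain, at 0.0734, and the nearest to Tap1 was Sppl2a, an intramembrane protease, at 0.0314. The nearest to B2m was Samd9l, an interferon-induced gene, at 0.197, to H2-K1 Sumf1 at 0.172 and to Nlrc5 Gm15899 at 0.117. The remaining nearest genes were Ctbp2 for Tap2, Gm37102 for Tapbp, Cuta for Psmb8, Psenen for Psmb9 and Acsbg1 for Psmb10. The closest other member ranked between 10 (Tap1 for Tapbp) and 1400 (Psmb9 for Tap2), so no member had another member as its nearest gene. These are 3 values per gene, all against the same 0h libraries, and are given as a description.

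The genes of the pathway lie on 3 chromosomes of mm10: 7 in the MHC on chromosome 17, B2m on chromosome 2, and Psmb10 and Nlrc5 on chromosome 8. Captured fragments are here those given as the captured end of a contact in any of the PCHi-C lists. Among these, 6 held the start sites of 8 members. Tap1 and Psmb9, which are transcribed in opposite directions from neighbouring starts, share the fragment chr17:34187164-34190209, and Tap2 and Psmb8 share chr17:34195308-34211953, so contacts of the genes in a pair cannot be told apart. The Tapbp fragment also holds Daxx and Zbtb22. No captured fragment of the lists held a start of H2-K1 or Nlrc5. H2-K1 had no listed contact at any time. Nlrc5 appeared only as the other end of contacts from fragments with Slc12a3, Herpud1 or Fam192a and Rspry1 and from fragments without a coding start. A captured fragment without a listed contact would not appear in the lists, so whether H2-K1 and Nlrc5 were captured cannot be read. The lists come from merged replicates, so no contact has a replicate check, and in order of time they hold 138769, 137836, 131598 and 144072 contacts.

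At 48h the fragments of B2m, H2-D1 and Tap1, whose RNA rose, had fewer listed contacts than at 0h. The fragment of Tapbp, which rose as well, had more. A relation between the number of listed contacts and RNA was not tested. B2m, with the largest rise in RNA, had 3, 9, 2 and 2 contacts in order of time. H2-D1 had 19, 24, 17 and 6, Tapbp 5, 8, 7 and 6, the Tap1 and Psmb9 fragment 7, 10, 7 and 4, and the Tap2 and Psmb8 fragment 23, 37, 24 and 20. All 6 fragments had more contacts at 1h than at 0h, while the mean over all captured fragments was 8.89 at 0h and 8.90 at 1h. The share of all captured fragments with more contacts at 1h was not computed, so this count cannot be judged against it. Psmb10, whose RNA did not pass the test at any time, had 84, 87, 68 and 70 contacts, more than 99.7% of the 18175 captured fragments at 0h and 99.5% at 48h. Captured fragments without a contact in any list are not among the 18175. At 48h H2-D1 kept 5 of its 19 contacts of 0h, or 10 of 19 with other ends within 10 kb counted, and among the 14 not listed were those with fragments at Vars, Aif1 and Bag6. With no replicate, a contact that is not listed may lie just under the score of 5 used for calling.

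**Figure D5:**
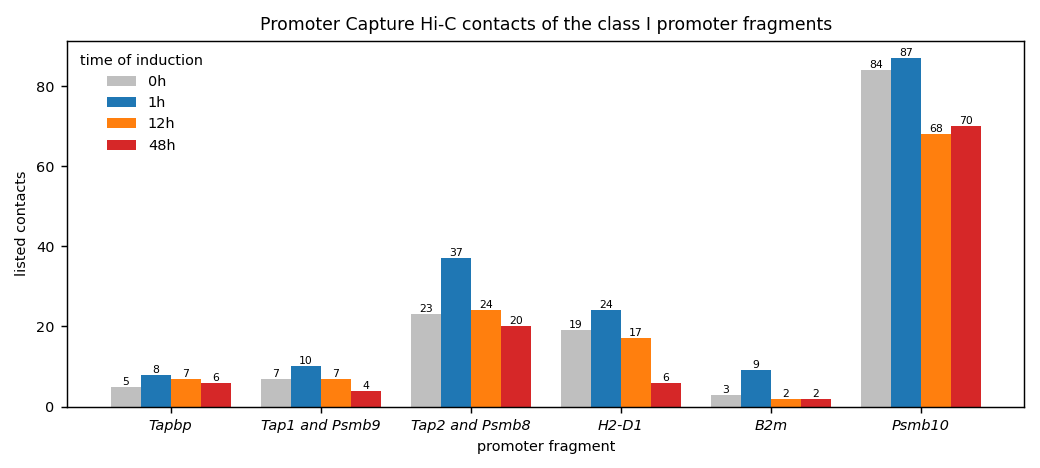
Number of listed PCHi-C contacts (y axis, from 0) of the 6 captured fragments that hold the start of a member (x axis), at 0h, 1h, 12h and 48h, from merged replicates without error bars. Psmb10 has 68 to 87 contacts at every time, and H2-D1 goes from 19 at 0h to 6 at 48h.

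Of the contacts of the captured fragments, those listed at all 4 times were 36 at Psmb10, 11 at the Tap2 and Psmb8 fragment, 3 each at H2-D1 and Tapbp, 2 at the Tap1 and Psmb9 fragment and 1 at B2m. The Tap1 and Psmb9 fragment touched the Tap2 and Psmb8 fragment, 14.9 kb away, at each time (CHiCAGO score 10.7 at 0h), and the Tapbp fragment touched the latter at 1h, 12h and 48h. B2m kept a contact with the Spg11 promoter fragment, 33.5 kb away (score 11.4 at 0h), and the Tap1 and Psmb9 fragment one with the Brd2 and H2-DMa fragment, 67.2 kb away. Of the 140 distinct contacts of the members at 0h, 80.0% were listed again at 1h (Wilson 95% interval 72.6% to 85.8%), 57.9% at 12h (interval 49.6% to 65.7%) and 56.4% at 48h (interval 48.2% to 64.4%). Over all captured fragments these shares were 57.6%, 53.2% and 55.9%, so the members' share stood above that of all fragments at 1h and had it within the interval at 12h and 48h. The intervals cover counting only, and 84 of the 140 contacts belong to the Psmb10 fragment and overlap in their neighbourhood. H2-D1 also had listed contacts with fragments 1.24 to 1.29 Mb away on either side of H2-K1, and with 2 fragments on chromosome 14. Reads of near-identical class I copies can be placed wrongly between such fragments, and the part of this in these contacts was not tested.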

How the data were processed

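RNA-seq of 12 libraries and PCHi-C lists of 4 times were used, and Hi-C was not used here. Per the labels and the study's methods, the authors trimmed reads with Trim Galore 0.6.2, mapped them with HISAT2 2.1.0 to mm10 (annotation GRCm38.96) and deposited TPM from RSEM, which keep no depth, so the precision set by depth is unknown. Technical replicates were merged before. PCHi-C reads of 2 replicates were merged by the authors and called with CHiCAGO. The deposited 0h list gives a score per contact. The other lists give whole numbers of an unnamed unit, of which only coordinates were used.

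Genes with a mean of at least 0.1 TPM were tested as log2(TPM + 0.1) with limma 3.58.1 in R 4.3.3 (variance trend, 1 model of 4 times, all 12 libraries). For genes of low TPM, this scale understates the change. Subunit ratios were compared by two-sided exact permutation tests. On simulated data, the limma fit of 48h versus 0h recovered 22% of log2 changes of 1 and 76% of changes of 2. A member that passed no test may therefore still have changed. Other steps used Python 3.11.15, pandas 2.3.3 and scipy 1.17.1. Alternatives varied the pseudocount, filter, scaling, trend, libraries, replicate block and thresholds. Scaling combined with leaving out libraries or with the block was added after seeing the data.

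The members and lists were chosen with earlier results of these data known. Named are all members, the constitutive subunits, the nearest gene to each member, and per list the 3 genes with the largest change past the threshold at 48h, of which 1 item is not reported here. Other genes, such as H2-M3, Psme1, Irf3, Nfkb1, Rela and Tapbpl, were named after their values were seen. Replicates are biological per the labels. Within a time, libraries correlated at 0.872 to 0.918 across genes.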

Additional observations from a re-analysis of the deposited data

How the results depend on the processing

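The 6 members that rose at 48h rose under each of the 15 alternatives run for them. With a log2 change beyond 2 also required, 3 rose at 48h, none at 1h, none at 12h or from 1h to 12h, and 1 from 12h to 48h, and with a change beyond 1 required, 2 rose at 12h and none from 1h to 12h. Both after scaling by median of ratios and after quantile normalization 1 member fell at 12h, and 3 and 2 rose between 1h and 12h. With a mean of at least 1 TPM 2 rose from 1h to 12h. Leaving out 1 library at a time, on either scale, 1 to 1 members rose at 1h, 1 to 4 at 12h, 6 to 6 at 48h, 0 to 3 from 1h to 12h and 4 to 7 from 12h to 48h, and 0 to 0, 0 to 1, 0 to 2, 0 to 1 and 0 to 0 fell. The 2 that fell at 48h did so without replicate 3 at 48h, and 1 fell at 12h and between 1h and 12h without replicate 3 at 12h. After scaling, 1 rose at 12h without any single 0h replicate or without replicate 1 or 2 at 12h. Log2 differences of the ratios of Psmb8, Psmb9 and Psmb10 to their counterparts kept their sign.

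Members that did not pass the test changed sign with the scaling. At 1h the values after median-of-ratios scaling and quantile normalization were -0.35 and -0.17 for H2-K1, -0.34 and -0.19 for H2-D1, -0.46 and -0.26 for B2m, -0.38 and -0.32 for Tap1, -0.30 and -0.23 for Tap2, -0.40 and -0.28 for Tapbp and -0.58 and -0.39 for Psmb8. At 12h they were -0.17 and -0.029 for H2-K1 and -0.26 and -0.22 for Psmb9. With single libraries left out, the range was -0.015 to 0.32 for H2-K1, -0.068 to 0.31 for Psmb9 and -0.63 to 0.11 for Psmb10 at 12h, -0.20 to 0.44 for Tap2 and -0.28 to 0.31 for Psmb9 at 48h, and for Psmb8 -0.032 to 0.18 at 1h and -0.10 to 0.37 between 12h and 48h. The cause was not tested.

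The labels do not say that same-numbered replicates share a culture or batch, and they were not taken as pairs. Of 18 same-numbered pairs, 7 had deviations from the group means that correlated over 0.1 (range -0.01 to 0.26), and 7 of 12 libraries, with replicate 3 of every time among them, correlated best on average with their own number. With the replicate block, 2 members rose from 1h to 12h, and 5 from 12h to 48h, where Tapbp missed the threshold (1.01, adjusted p = 0.0571, limma) and Tap1 passed it (0.65, adjusted p = 0.0322). With the block on scaled values, 2 members fell at 1h and 1 at 12h, 3 rose between 1h and 12h and 8 between 12h and 48h. The block left the other counts within 1.5 times of those reported.

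With other ends within 10 kb counted, the shares of 0h contacts listed again were 95% at 1h, 87.9% at 12h and 79.3% at 48h, and among contacts with a 0h score of at least 10 they were 96.2%, 80.8% and 84.6%. Neither rule was applied to all captured fragments, so whether these shares are high cannot be read. Most of the 0h contacts belong to the Psmb10 fragment, with other ends that lie close together.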
